A study of Mus musculus with 292 samples.

Results

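The comparison described here sets hypothalamus taken at zeitgeber time 0 (ZT0, by convention lights-on and the start of a mouse's rest phase) against hypothalamus taken at ZT12 (by convention lights-off and the start of the active phase). Apart from leaving out ZT0 replicate 9, its members were chosen from the labels alone, as the hypothalamus libraries of these ZT groups. They were 23 of the 292 RNA-seq libraries of the study, which also covered cortex, striatum and liver at 8 ZT. ZT0 had 11 libraries, 5 from the 0 h and 6 from the 24 h time point, and ZT12 had 12 libraries, 6 from 12 h and 6 from 36 h. ZT0 replicate 9 was left out because it carried pituitary RNA. Every mouse was a wild-type C57BL/6J male aged 26 weeks, no treatment is named, and the 23 libraries carried 23 different mouse codes, so each is a separate animal.

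The hypothalamus holds the suprachiasmatic nucleus, the light-entrained pacemaker of the mammalian clock, beside centres for feeding, sleep, body temperature and hormone release. In the core clock loop, the proteins of Arntl (Bmal1) and of Clock or Npas2 bind E-box DNA and switch on the Per and Cry genes, whose products then block that activation. The REV-ERB proteins, from Nr1d1 and Nr1d2, repress Arntl, and the D-box factors Dbp, Tef and Hlf and their opponent Nfil3 carry the rhythm to output genes. In night-active rodents, circulating corticosterone and body temperature are both high around the onset of darkness or during it, and glucocorticoid, heat shock and cold-inducible genes follow such signals in many tissues.

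The libraries held 31543203 to 39575269 gene counts at ZT0 and 33430489 to 40615858 at ZT12. Hypothalamic markers were present in every library, with sums over 16 genes of 2498 to 3045 CPM (counts scaled to a common library total) at ZT0 and 2530 to 3122 CPM at ZT12, and none of the 16 passed the edgeR test below (2 at an unadjusted p under 0.05, none called by DESeq2). Libraries also varied within each ZT group. Pituitary markers summed to 884 CPM in ZT0 replicate 2 and 204 CPM in ZT12 replicate 5, against at most 68.7 CPM in the other ZT0 and 52.2 CPM in the other ZT12 libraries. Thalamic markers summed to 211 CPM in ZT12 replicate 1, against at most 119 CPM in any ZT0 library and 100.1 CPM in the other ZT12 libraries. The transcript Gm42418, which overlaps a ribosomal RNA repeat, took 0.302 to 4.92% of counts at ZT0 and 0.415 to 10.2% at ZT12, with the top values in ZT12 replicates 5 and 6. Haemoglobin and other red-cell genes summed to 48.4 to 111 CPM at ZT0 (median 68.0) and 47.5 to 186 CPM at ZT12 (median 104). All 5 of these genes had a log2 fold change below 0. In whole tissue, fewer cells of a type and less RNA per cell cannot be told apart.

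Differences between the times were small but numerous. Of 18756 genes that passed the filter on low counts, 2571 (13.7%) differed between ZT0 and ZT12 at an adjusted p under 0.05. All adjusted p here are from edgeR's quasi-likelihood test with Benjamini-Hochberg adjustment over all genes tested, and a gene is said to be called where it passed. ZT0 was higher for 1266 genes (6.75% of those tested) and lower for 1305 (6.96%). Of the called genes, 320 (1.71% of those tested) changed by at least 1.5-fold and 43 (0.229%) by at least 2-fold. In 133 genes every ZT0 library lay above every ZT12 library, in 66 every ZT0 library lay below, and together these were 1.06% of the genes tested. Without 4 libraries that stood apart in pituitary, thalamic or Gm42418 reads (ZT0 replicate 2 and ZT12 replicates 1, 5 and 6), 2404 genes were called. With the L number of the labels as a block, 875 were called. L numbers were spread unevenly, with at most 3 libraries of either ZT under the same number.

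**Figure D1:**
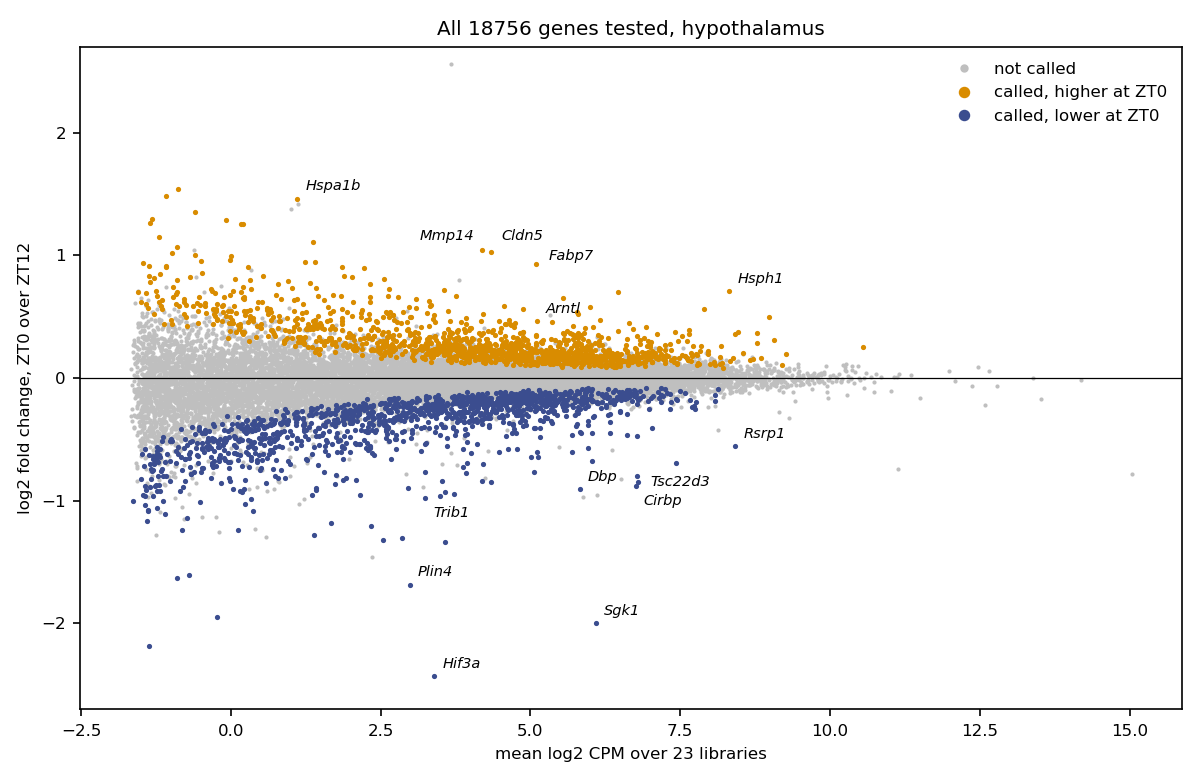
Each point is 1 of the 18756 genes tested, with its mean log2 CPM over the 23 hypothalamus libraries on the x axis and its log2 fold change, ZT0 over ZT12, on the y axis. Orange marks the 1266 called genes that were higher at ZT0 and blue the 1305 that were lower. Sgk1 and Hif3a lie lowest among the labelled genes, at -2.002 and -2.43, and Hspa1b lies highest, at 1.46.

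Of the 24 listed clock and clock-output genes, all tested, 3 were higher at ZT0, 9 were lower and 12 were not called, against 13.7% called among all genes. The 3 that were higher were Arntl, Npas2 and Nfil3, and the 9 that were lower were Dbp, Ciart, Per1, Usp2, Per2, Per3, Cry1, Nr1d2 and Bhlhe41. The list's median log2 fold change was -0.07, and the median over all genes tested was -0.01. Under the L number block 2 were higher and 6 lower, with Npas2, Cry1, Nr1d2 and Bhlhe41 no longer called.

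Dbp encodes a D-box activator driven directly by the clock. Its lowest, median and highest library had 30.4, 39.2 and 45.3 CPM at ZT0, against 59.6, 72.0 and 85.7 CPM at ZT12. The groups did not overlap, and the log2 fold change was -0.91 ± 0.07 (SE, adjusted p = 8.18e-10). Dbp lies at chr7:45705088-45710203 (GRCm38, GENCODE M21), and 18.0% of its exonic bases are shared with Sphk2 on the other strand. Since the strand setting of the counting is not given, reads from those bases could belong to either gene.

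Nfil3, a repressor at the same D-box sites, had 11.1, 12.3 and 13.1 CPM (lowest, median, highest) at ZT0 and 7.19, 7.89 and 9.07 CPM at ZT12. Every ZT0 library was above every ZT12 library, by 0.60 ± 0.05 on the log2 scale (adjusted p = 9.08e-09). Arntl, the activator of the loop, likewise had 36.8, 40.0 and 44.6 CPM at ZT0 and 26.7, 28.7 and 32.1 CPM at ZT12, with no overlap (log2 0.46 ± 0.04, adjusted p = 2.97e-09). Its partner genes changed less. Npas2 had 10.4, 10.99 and 12.7 CPM at ZT0 against 8.19, 9.02 and 11.4 CPM at ZT12 (log2 0.22 ± 0.06, adjusted p = 0.0112), and Clock was not called at log2 0.16 ± 0.08 (adjusted p = 0.165).

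Among the repressors, Ciart (Chrono), which binds the activator pair, had 8.67, 11.1 and 12.1 CPM at ZT0 and 15.2, 18.1 and 20.1 CPM at ZT12, again with no overlap (log2 -0.73 ± 0.06, adjusted p = 1.47e-08). The Period genes, whose proteins block their own transcription, were all lower at ZT0. Per1 averaged 40.8 ± 4.16 CPM at ZT0 and 61.3 ± 8.60 CPM at ZT12 (SD, n = 11 and 12), Per2 29.8 ± 3.54 and 40.8 ± 5.02 CPM, and Per3 55.3 ± 6.08 and 74.5 ± 10.05 CPM. Their log2 fold changes were -0.61, -0.48 and -0.45 (adjusted p = 4.85e-07, 3.57e-06 and 7.54e-06), and in each the groups overlapped at the edge. Cry1, the cryptochrome that acts late in the cycle, was lower by 0.20 ± 0.04 on the log2 scale (adjusted p = 0.00117), and Cry2 was not called (log2 -0.08 ± 0.05, adjusted p = 0.346). Usp2, a clock-driven deubiquitinase, had 17.2 to 21.8 CPM at ZT0 and 23.1 to 32.8 CPM at ZT12, with no overlap (log2 -0.58 ± 0.05, adjusted p = 1.94e-09).

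The nuclear receptors and kinases of the clock stood closer to 0. Nr1d2 was lower by 0.19 ± 0.06 on the log2 scale (adjusted p = 0.0366), and Nr1d1 was not called at nearly the same value, -0.20 ± 0.08 (adjusted p = 0.0862). Nr1d2 was not called with library totals alone, without a filter, or without the 2 libraries that have no D number. Bhlhe41 (Dec2), an E-box repressor, was lower by 0.15 ± 0.03 (adjusted p = 0.00223), while Bhlhe40 (Dec1) had 65.5 ± 2.53 CPM at ZT0 and 64.2 ± 4.58 CPM at ZT12 and was not called. Tef, Hlf, Rora, Rorb, Csnk1d and Csnk1e were not called either, with log2 fold changes from -0.20 to 0.11. Of the exonic bases of Bhlhe41, 19% are shared with Gm43909 on the other strand.

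**Figure D2:**
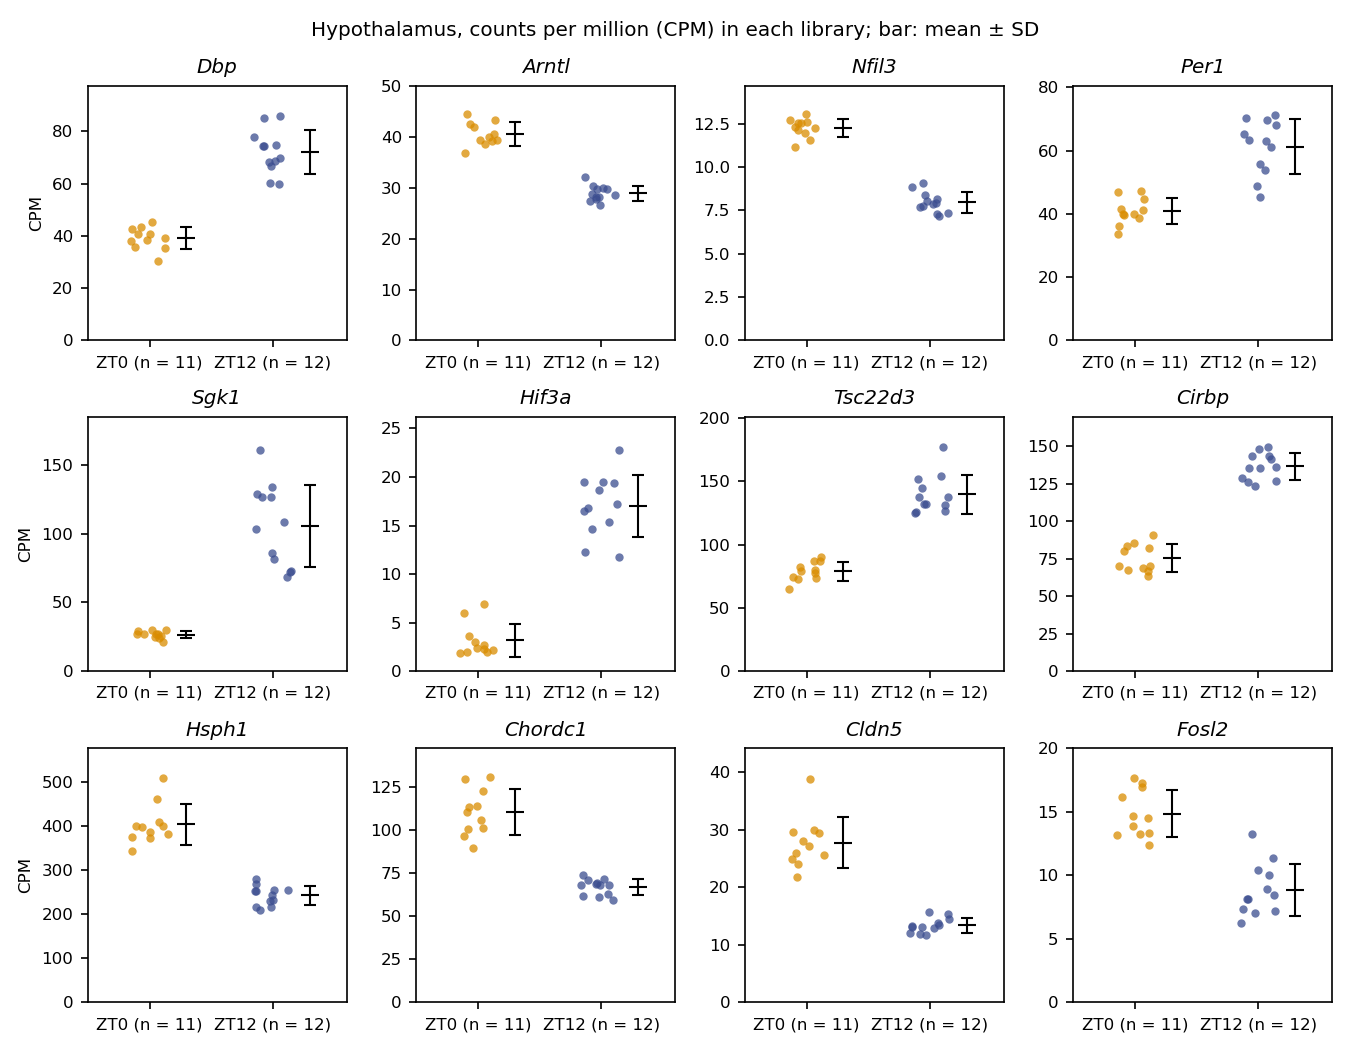
CPM of 12 genes in each of the 11 ZT0 libraries (left, orange) and 12 ZT12 libraries (right, blue); the bar beside each group is its mean ± SD, and every y axis starts at 0. The groups are apart in every panel except Per1 and Fosl2, where the highest values of the lower group reach those of the other.

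Promoter sequences of 3 clock genes are shown because they hold the elements through which the loop is known to act. They are RefSeq windows on GRCm38.p6, from 250 bases before to 50 after the annotated start, 5′ to 3′ on the gene's strand. Capitals mark the E-box CACGTG in Ciart and Per1, and TAGGTCA, the core of the element bound by REV-ERB and ROR proteins, in Arntl (other strand TGACCTA).
Ciart, chr3:95882179-95882478, minus strand: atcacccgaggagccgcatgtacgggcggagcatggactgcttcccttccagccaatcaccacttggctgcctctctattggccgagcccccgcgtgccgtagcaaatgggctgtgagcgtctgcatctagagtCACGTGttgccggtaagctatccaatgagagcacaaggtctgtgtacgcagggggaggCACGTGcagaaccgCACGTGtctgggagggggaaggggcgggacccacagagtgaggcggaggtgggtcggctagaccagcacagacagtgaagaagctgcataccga
Per1, chr11:69098699-69098998, plus strand: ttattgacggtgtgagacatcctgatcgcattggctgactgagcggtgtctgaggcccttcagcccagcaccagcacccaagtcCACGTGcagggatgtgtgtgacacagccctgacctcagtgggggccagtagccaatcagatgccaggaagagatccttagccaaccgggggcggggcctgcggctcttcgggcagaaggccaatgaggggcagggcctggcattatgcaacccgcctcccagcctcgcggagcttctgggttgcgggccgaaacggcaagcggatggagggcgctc
Arntl, chr7:113207261-113207560, plus strand: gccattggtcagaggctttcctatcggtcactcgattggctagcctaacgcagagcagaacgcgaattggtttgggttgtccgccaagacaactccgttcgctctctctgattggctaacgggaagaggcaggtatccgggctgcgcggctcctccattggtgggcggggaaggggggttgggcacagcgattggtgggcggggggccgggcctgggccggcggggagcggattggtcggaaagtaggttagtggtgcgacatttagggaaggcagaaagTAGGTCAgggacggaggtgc
Ciart holds 3 E-boxes in its 1 window, and Per1 and Arntl are each shown by 1 of 2 windows. An E-box was found in 5 of the 19 listed clock genes that are in the table (Per1, Cry1, Tef, Bhlhe41 and Ciart), and in 8.09% of all 27025 genes of the table (7.15% of 32851 windows, as some genes have several). TAGGTCA, searched on both strands, was found in Arntl and Nfil3 among the 19, and in 2.97% of all genes (2.61% of windows). Arntl and Nfil3 were higher at ZT0, and of the 5 genes with an E-box 4 were lower and Tef was not called. A match is a description of the letters only.

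Genes known to respond to glucocorticoids were mostly lower at ZT0, and Hif3a and Sgk1 among them had the largest fold changes of the called genes whose log2 CPM averaged 1 or more. All 20 on the list were tested. Of these, 16 were lower, none was higher and 4 (Cdkn1a, Pdk4, Errfi1 and Lcn2) were not called, against 6.96% of all genes lower. The list's median log2 fold change was -0.65, against -0.01 over all genes tested. In 6 of them (Sgk1, Hif3a, Tsc22d3, Map3k6, Klf15 and Arrdc2) every ZT0 library lay below every ZT12 library, against 0.352% of all genes. The list was chosen with earlier results of these data known, and Per1 and Plin4 on it belong to other pathways too.

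Sgk1, a kinase that controls ion transport and is a direct target of the glucocorticoid receptor, had 21.6, 26.9 and 30.1 CPM (lowest, median, highest) at ZT0 and 68.4, 106 and 161 CPM at ZT12. The ZT12 libraries were both far higher and far more spread, with SDs of 2.53 CPM at ZT0 and 29.8 CPM at ZT12. The log2 fold change was -2.002 ± 0.12 (adjusted p = 7.20e-11), the smallest adjusted p of all genes. Hif3a, an inhibitory member of the hypoxia-inducible factor family, had 1.90, 2.41 and 6.95 CPM at ZT0 and 11.7, 17.03 and 22.7 CPM at ZT12. Its log2 fold change of -2.43 ± 0.19 (adjusted p = 1.78e-09) was the furthest below 0 among called genes whose log2 CPM averaged 1 or more. Per length, using the authors' FPKM, Sgk1 stood at 5.45 ± 0.517 at ZT0 and 21.6 ± 6.08 at ZT12, and Hif3a at 0.476 ± 0.257 and 2.54 ± 0.477 (SD, n = 11 and 12).

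Tsc22d3 (GILZ), an anti-inflammatory mediator of glucocorticoids, averaged 79.1 ± 7.37 CPM at ZT0 and 140 ± 15.2 CPM at ZT12 (log2 -0.84 ± 0.06, adjusted p = 5.44e-10). Plin4, a lipid droplet coat protein, had 2.11 to 8.30 CPM at ZT0 and 6.81 to 15.2 CPM at ZT12 (log2 -1.69 ± 0.19, adjusted p = 8.11e-07). Only the top of the ZT0 range reached into the ZT12 range for Plin4. Map3k6, a stress-activated kinase kinase, had 1.01 to 1.98 CPM at ZT0 and 2.51 to 3.87 CPM at ZT12 (log2 -0.96 ± 0.08, adjusted p = 1.31e-08). The transcription factors Klf9 and Klf15 were lower by 0.57 ± 0.05 and 0.45 ± 0.05 on the log2 scale (adjusted p = 5.45e-08 and 9.28e-07). Fkbp5, a co-chaperone that dampens the receptor, was lower by 0.35 ± 0.05 (adjusted p = 8.67e-06). The metallothioneins Mt1 and Mt2, which bind metals, were lower by 0.69 ± 0.15 and 0.80 ± 0.15 (adjusted p = 0.00252 and 0.000456). Of the exonic bases of Mt2, 73.5% are shared with Gm45774 on the other strand. The receptors themselves were not called: Nr3c1 (glucocorticoid receptor) had a log2 fold change of 0.04 ± 0.06 (adjusted p = 0.72) and Nr3c2 (mineralocorticoid receptor) of -0.09 ± 0.05 (adjusted p = 0.265).

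The Sgk1 promoter window that holds a full palindromic glucocorticoid response element is shown, since Sgk1 had the smallest adjusted p. It is 1 of 6 RefSeq windows of the gene, on GRCm38.p6, and capitals mark AGAACA and TGTTCT with 3 bases between them, a palindrome that reads the same on both strands.
Sgk1, chr10:21993640-21993939, plus strand: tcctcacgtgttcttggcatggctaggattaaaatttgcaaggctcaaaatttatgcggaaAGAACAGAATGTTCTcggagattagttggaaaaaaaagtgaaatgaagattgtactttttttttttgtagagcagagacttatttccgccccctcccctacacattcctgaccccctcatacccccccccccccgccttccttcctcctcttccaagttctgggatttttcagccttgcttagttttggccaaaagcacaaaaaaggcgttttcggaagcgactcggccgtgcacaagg
That full element was found in 3 of the 27025 genes (0.0111%, or 0.00913% of windows), and Sgk1 was the only gene with it among the 19 list members in the table.

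Cytosolic chaperones were higher at ZT0. Of the 25 listed, all tested, 21 were higher, none was lower and 4 (Hspe1, Dnajb5, Dnajb6 and Hspb8) were not called, against 6.75% of all genes higher. The list's median log2 fold change was 0.36, against -0.01 over all genes. In 11 of them every ZT0 library lay above every ZT12 library, as in 0.709% of all genes. Under the L number block 16 were higher and none was lower.

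Hsph1 (HSP110), a nucleotide exchange factor for HSP70, had 344, 398 and 510 CPM at ZT0 and 209, 249 and 281 CPM at ZT12. The groups were apart, with a log2 fold change of 0.71 ± 0.05 (adjusted p = 5.44e-10). Chordc1, an HSP90 co-chaperone, had 89.8, 110 and 131 CPM at ZT0 and 59.6, 68.3 and 74.1 CPM at ZT12 (log2 0.70 ± 0.06, adjusted p = 3.75e-09). Stip1 (HOP), which links HSP70 to HSP90, had 255 to 320 CPM at ZT0 and 176 to 201 CPM at ZT12 (log2 0.56 ± 0.04, adjusted p = 1.77e-09). All 3 were separate in every library. Hspa1b and Hspa1a, the stress-inducible HSP70 genes, were low in level and changed most. Hspa1b had 1.601, 3.40 and 4.97 CPM at ZT0 and 0.878, 1.13 and 1.42 CPM at ZT12 (log2 1.46 ± 0.17, adjusted p = 9.61e-07), the furthest above 0 among called genes whose log2 CPM averaged 1 or more. Hspa1a was higher by 0.91 ± 0.12 (adjusted p = 1.16e-05). They are near-identical copies, so the split of reads between them is uncertain, and 19% of the exonic bases of Hspa1a are shared with Gm20481 on the other strand.

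The constitutive members were far more abundant and moved less. Per length, Hspa8 (HSC70) had 121 ± 7.64 FPKM at ZT0 and 92.4 ± 5.43 FPKM at ZT12, whereas Hspa1b had 1.13 ± 0.398 and 0.402 ± 0.0595 FPKM (SD, n = 11 and 12). The log2 fold change of Hspa8 was 0.37 ± 0.04 (adjusted p = 1.95e-06). For the HSP90 genes, Hsp90aa1 was higher by 0.36 ± 0.05 and Hsp90ab1 by 0.25 ± 0.03 on the log2 scale (adjusted p = 3.56e-06 and 4.82e-07). Hsp90ab1 had 1571, 1659 and 1742 CPM at ZT0 and 1251, 1381 and 1438 CPM at ZT12, without overlap between the groups. The small heat shock proteins Hspb1 and Cryab were higher by 0.73 ± 0.15 and 0.45 ± 0.10 (adjusted p = 0.00121 and 0.00277). Dnaja4 was called at 0.39 ± 0.04 (adjusted p = 2.41e-07), with 44.1% of its exonic bases shared with Wdr61 on the other strand.

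The promoter windows of Hsph1 and Chordc1 are shown because both genes were separate in every library and both hold a heat shock element, the site of the factor HSF1. The motif searched, in capitals, was GAA, TTC and GAA with NN between the units (other strand TTC, GAA and TTC), in RefSeq windows on GRCm38.p6.
Hsph1, chr5:149636266-149636565, minus strand: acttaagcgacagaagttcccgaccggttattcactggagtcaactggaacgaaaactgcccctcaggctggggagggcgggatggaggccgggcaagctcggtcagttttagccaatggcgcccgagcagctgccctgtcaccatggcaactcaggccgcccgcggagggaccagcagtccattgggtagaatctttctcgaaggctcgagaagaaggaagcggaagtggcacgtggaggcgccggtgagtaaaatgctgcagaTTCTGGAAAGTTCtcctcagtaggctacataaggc
Chordc1, chr9:18292017-18292316, plus strand: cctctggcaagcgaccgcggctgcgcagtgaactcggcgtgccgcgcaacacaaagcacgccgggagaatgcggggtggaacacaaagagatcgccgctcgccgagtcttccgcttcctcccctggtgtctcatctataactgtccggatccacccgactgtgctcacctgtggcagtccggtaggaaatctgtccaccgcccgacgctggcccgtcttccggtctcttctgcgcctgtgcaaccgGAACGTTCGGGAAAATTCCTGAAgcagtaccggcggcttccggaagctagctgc
Chordc1 holds 3 overlapping matches across its start site, and Hsph1 holds 1 in the window shown, 1 of its 2. A match was found in 5 of the 21 list members in the table (Hsph1, Dnajb6, Hspd1, Hspe1 and Chordc1) and in 0.662% of all genes (0.603% of windows). Of these 5, Hsph1, Chordc1 and Hspd1 were higher at ZT0, and Dnajb6 and Hspe1 were not called.

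Chaperones of the endoplasmic reticulum (ER) showed the same direction at smaller size. Of 23 listed, all tested, 12 were higher, none was lower and 11 were not called, against 6.75% of all genes higher, and the median log2 fold change was 0.17. Sdf2l1, an ER co-chaperone, had 10.2, 11.6 and 14.7 CPM at ZT0 and 6.85, 7.34 and 9.54 CPM at ZT12 (log2 0.63 ± 0.08, adjusted p = 7.92e-06). The calcium-binding chaperone Calr had 358 to 430 CPM at ZT0 and 275 to 335 CPM at ZT12 (log2 0.38 ± 0.05, adjusted p = 1.95e-06). Neither overlapped between groups. Hsp90b1, Pdia4 and Hspa5 (BiP) were higher by 0.31 ± 0.04, 0.37 ± 0.05 and 0.28 ± 0.05 (adjusted p = 1.33e-06, 8.00e-06 and 0.000287), and 15.7% of the exonic bases of Hsp90b1 are shared with other annotated genes. Of the listed genes outside protein folding, Xbp1, a transcription factor of the unfolded protein response, was higher by 0.17 ± 0.06 (adjusted p = 0.0478), and Atf4, Ddit3, Trib3 and Herpud1 were not called, with log2 fold changes from -0.23 to 0.03. The ER count fell to 6 under the L number block.

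Of 5 listed cold-inducible RNA-binding and CLK genes, Cirbp and Rbm3 were lower at ZT0, Clk1 was higher and 2 were not called, with a median log2 fold change of 0.03. Over all genes 6.96% were lower and 6.75% higher. Cirbp, an RNA-binding protein made more at lower body temperature, had 63.7, 70.4 and 91.2 CPM at ZT0 and 124, 136 and 150 CPM at ZT12. The groups were far apart (log2 -0.88 ± 0.06, adjusted p = 9.70e-11). Its relative Rbm3 had 27.4, 32.5 and 35.6 CPM at ZT0 and 34.4, 39.8 and 44.5 CPM at ZT12, with a slight overlap (log2 -0.34 ± 0.05, adjusted p = 1.17e-05). The processed pseudogene Rbm3-ps was also called, at -1.34 ± 0.11 (adjusted p = 1.78e-09), and reads could have been split between it and Rbm3, so both values are uncertain. Of the CLK kinases, which phosphorylate splicing factors, Clk1 was higher by 0.18 ± 0.05 (adjusted p = 0.012) and Clk4 was not called. Clk1 was not called under the L number block, or without the 4 libraries that stood apart, at 0.15.

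**Figure D3:**
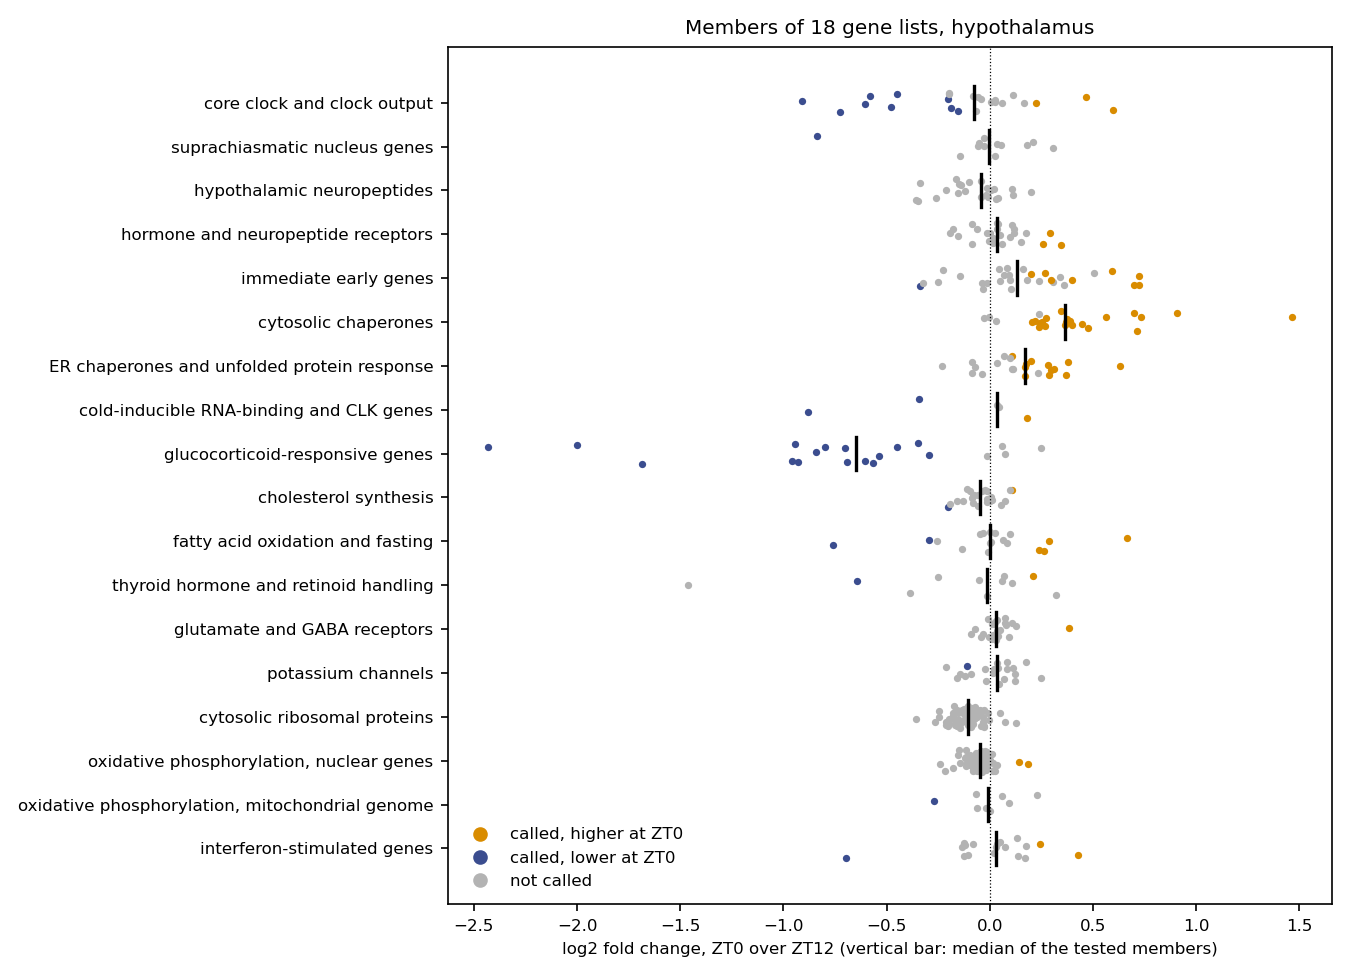
Log2 fold change, ZT0 over ZT12, of every tested member of 18 gene lists (1 row per list; orange called and higher at ZT0, blue called and lower, grey not called; the black bar is the list's median). The glucocorticoid list lies mostly left of 0 with a median of -0.65, the cytosolic chaperones mostly right of it with a median of 0.36, and the neuropeptide and ribosomal rows hold grey points only.

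Immediate early genes, the rapid transcriptional reply of neurons to activity, were called mostly as higher at ZT0. Of the 30 listed, all tested, 8 were higher (Fosl2, Nr4a3, Homer1, Arc, Fos, Vgf, Ier5 and Egr2), Klf2 was lower and 21 were not called, against 6.75% of all genes higher and 6.96% lower. The median log2 fold change was 0.13. Fosl2, an AP-1 subunit, had 12.4, 14.5 and 17.6 CPM at ZT0 and 6.22, 8.30 and 13.3 CPM at ZT12 (log2 0.72 ± 0.10, adjusted p = 7.38e-06). Nr4a3, an orphan nuclear receptor, had 6.11, 8.30 and 9.27 CPM at ZT0 and 3.72, 4.39 and 7.18 CPM at ZT12 (log2 0.72 ± 0.10, adjusted p = 1.26e-05). For both, the top of the ZT12 range reached the bottom of the ZT0 range. Fos averaged 12.2 ± 2.29 CPM at ZT0 and 8.0 ± 2.99 CPM at ZT12 (adjusted p = 0.017). Arc, a synaptic scaffold, and Homer1 were higher by 0.30 ± 0.08 and 0.27 ± 0.06 (adjusted p = 0.00842 and 0.00325). Egr1, Npas4, Junb and Dusp1 were not called, with log2 fold changes from -0.15 to 0.10. The count depended on the libraries: 3 were higher under the L number block and 5 without the 2 libraries that have no D number, and in the first cycle alone none was called.

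None of 23 tested hypothalamic neuropeptide genes was called in whole tissue, with 1 at an unadjusted p under 0.05 and none called by DESeq2. Their median log2 fold change was -0.04. Over all genes tested 13.7% were called. With SEs such as 0.27 for Agrp, moderate changes could have been missed. Pmch (melanin-concentrating hormone) had 639 to 1202 CPM at ZT0 and 608 to 1337 CPM at ZT12, with 58.1% of its exonic bases shared with Parpbp on the other strand. Hcrt (orexin) averaged 118 ± 40.9 CPM at ZT0 and 102 ± 43.4 CPM at ZT12, and its log2 fold change was 0.20 ± 0.23 (adjusted p = 0.642). The spread between animals exceeded the difference between times for both. The feeding peptides Npy and Agrp had log2 fold changes of -0.35 ± 0.26 and -0.26 ± 0.27 (adjusted p = 0.446 and 0.597), both smaller than the spread between animals. Qrfp and Trh had the smallest p of the list and were not called, at -0.36 ± 0.17 and -0.21 ± 0.12 (adjusted p = 0.172 and 0.279).

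Among 12 genes of the suprachiasmatic nucleus, only Vip passed the test. Vip, the peptide that couples its neurons, had 2.31, 12.6 and 21.6 CPM at ZT0 and 10.02, 21.6 and 39.8 CPM at ZT12 (log2 -0.84 ± 0.24, adjusted p = 0.0187). The groups overlapped widely, and Vip was not called under the L number block (adjusted p = 0.16) or in either cycle alone. Cortex also held Vip RNA, at 41.7 CPM at ZT0 and 38.1 CPM at ZT12, so Vip is not specific to the suprachiasmatic nucleus. Avp, which other hypothalamic nuclei also make, was not called (log2 -0.15 ± 0.19, adjusted p = 0.678). Of 25 hormone and neuropeptide receptors, 3 were higher at ZT0 and none was lower, a share close to that over all genes (13.7% called). Avpr1a, a vasopressin receptor, had 5.08 to 6.71 CPM at ZT0 and 2.98 to 5.47 CPM at ZT12 (log2 0.35 ± 0.08, adjusted p = 0.00239). Npy1r and Hcrtr2, receptors for neuropeptide Y and orexin, were higher by 0.29 ± 0.07 and 0.26 ± 0.07 (adjusted p = 0.00621 and 0.021), and neither was called under the L number block.

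Ion channel lists held few called genes, against 13.7% called over all genes tested. Their median log2 fold changes were 0.03 for glutamate and GABA receptors and 0.03 for potassium channels. Of 24 glutamate and GABA receptor subunits, Gabra2 alone was called, with 86.8, 102 and 119 CPM at ZT0 and 63.0, 77.3 and 85.5 CPM at ZT12 and no overlap (log2 0.38 ± 0.05, adjusted p = 1.80e-05). Of 21 potassium channels, Kcnk2 alone was called, lower by 0.11 ± 0.04 (adjusted p = 0.0471), and that call was lost under 9 of 15 other settings.

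Genes outside these lists gave several of the largest differences. Mmp14, a membrane-bound metalloproteinase, had 20.9, 24.9 and 28.0 CPM at ZT0 and 7.54, 12.4 and 15.3 CPM at ZT12 (log2 1.04 ± 0.07, adjusted p = 3.79e-10). Fabp7, a fatty acid binding protein of astrocytes, had 33.7, 47.2 and 54.2 CPM at ZT0 and 18.4, 21.6 and 30.5 CPM at ZT12 (log2 0.93 ± 0.10, adjusted p = 8.11e-07). Aqp9, a glycerol channel, had 2.55 to 3.72 CPM at ZT0 and 0.978 to 1.91 CPM at ZT12 (log2 0.94 ± 0.09, adjusted p = 5.03e-08). No library crossed over in these 3 genes. P4ha1, a subunit of the collagen prolyl hydroxylase, was higher by 0.65 ± 0.05 (adjusted p = 5.44e-10), and Tm6sf2, which acts in lipid export in the liver, by 1.11 ± 0.14 (adjusted p = 5.32e-06). Rab39, Dok3, Dnase1l2, the lincRNA Gm26945 and the mitochondrial tRNA mt-Ti completed the 12 with the largest rise, with log2 fold changes from 0.81 to 0.95.

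On the other side, Trib1, a pseudokinase that steers protein degradation, had 4.99, 6.29 and 7.34 CPM at ZT0 and 10.04, 12.5 and 14.5 CPM at ZT12 (log2 -0.98 ± 0.06, adjusted p = 9.70e-11). Net1, an exchange factor for RhoA, had 9.42 to 12.6 CPM at ZT0 and 16.5 to 21.3 CPM at ZT12 (log2 -0.77 ± 0.05, adjusted p = 9.70e-11). The splicing-related gene Rsrp1 had 239 to 322 CPM at ZT0 and 362 to 452 CPM at ZT12 (log2 -0.56 ± 0.04, adjusted p = 7.82e-10). All 3 were separate in every library. Fmo2, a flavin monooxygenase, was lower by 1.32 ± 0.18, Arl4d, a small GTPase, by 1.30 ± 0.17, and Plekhf1, an endosomal protein, by 1.21 ± 0.14 (adjusted p = 9.15e-06, 4.50e-06 and 9.28e-07). Kirrel2, an adhesion molecule of the immunoglobulin family, had 1.32 to 2.48 CPM at ZT0 and 3.29 to 5.75 CPM at ZT12 (log2 -1.18 ± 0.11, adjusted p = 6.38e-08).

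Of 18 genes of fatty acid oxidation and fasting, 4 were higher at ZT0, among them Angptl4, Plin2 and Acot1, and 2 lower (Txnip and Ucp2), against 6.75% of all genes higher and 6.96% lower. Under the L number block Angptl4 and Txnip alone were called. Angptl4, an inhibitor of lipoprotein lipase, had 4.75, 6.42 and 7.08 CPM at ZT0 and 3.01, 3.53 and 5.51 CPM at ZT12 (log2 0.66 ± 0.10, adjusted p = 7.42e-05). Txnip, a glucose-induced inhibitor of thioredoxin, had 19.3, 24.4 and 32.3 CPM at ZT0 and 33.6, 40.8 and 56.0 CPM at ZT12 (log2 -0.76 ± 0.08, adjusted p = 4.02e-07). With the left-out library put back Txnip was not called, at -0.42. The Txnip groups were apart, with 19.4% of its exonic bases shared with Gm15441 on the other strand. Of 24 cholesterol synthesis genes, Cyp51 was higher by 0.11 ± 0.03 and Mvk lower by 0.20 ± 0.07 (adjusted p = 0.0328 and 0.0383), and neither was called under the L number block or without the 4 libraries that stood apart (log2 0.09 and -0.12). Of 11 tested genes of thyroid hormone and retinoid handling, Hr, a corepressor that thyroid hormone induces in brain, was lower by 0.65 ± 0.08 (adjusted p = 5.81e-06), and Rarb was higher by 0.21 ± 0.06 (adjusted p = 0.0161, not called under the L number block or without the 4 libraries that stood apart), with 38.4% of its exonic bases shared with other genes.

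Housekeeping lists gave almost no calls, against 13.7% called over all genes tested. None of 79 ribosomal protein genes was called by edgeR (3 at an unadjusted p under 0.05, and 1 called as lower by DESeq2), though 76 had a log2 fold change below 0 and the median was -0.11. That median was -0.08 with library totals alone, -0.13 with upper-quartile scaling and -0.03 without the 4 libraries that stood apart. Ribosomal protein genes have many processed copies, so their counts are uncertain. Of 73 nuclear genes of oxidative phosphorylation, Ndufab1 and Ndufb2, both subunits of complex I, were higher by 0.14 ± 0.04 and 0.18 ± 0.06 (adjusted p = 0.0128 and 0.0408), and the median was -0.05. Neither was called under the L number block or in either cycle alone. Of 13 mitochondrially encoded subunits, 8 passed the filter and mt-Nd6 alone was called, lower by 0.27 ± 0.09 (adjusted p = 0.0382), and not under the L number block or without the 4 libraries that stood apart. Of 18 interferon-stimulated genes, Ifit3 was lower by 0.70 ± 0.11 (adjusted p = 0.00012), and Irf9 and Oas1a were higher by 0.24 ± 0.05 and 0.43 ± 0.14 (adjusted p = 0.0017 and 0.0465). These 3 did not move one way, and their share of the list was close to that over all genes (13.7% called). The call of Oas1a was lost under 9 of 15 other settings.

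Markers of blood vessels changed in both directions. Of 16 endothelial and mural genes, 4 were higher (Cldn5, Flt1, Pecam1 and Tek) and 3 lower (Slc2a1, Ly6c1 and Slco1a4), against 6.75% and 6.96% of all genes, while the summed level was 513 to 615 CPM at ZT0 and 455 to 650 CPM at ZT12. Cldn5, the tight-junction protein of the blood-brain barrier, had 21.8, 27.2 and 38.8 CPM at ZT0 and 11.7, 13.2 and 15.7 CPM at ZT12, with no overlap (log2 1.03 ± 0.07, adjusted p = 3.79e-10). Slc2a1, the glucose transporter GLUT1 of the same cells, had 71.8, 84.0 and 97.7 CPM at ZT0 and 94.1, 114 and 125 CPM at ZT12 (log2 -0.46 ± 0.05, adjusted p = 9.28e-07). Flt1, a receptor for VEGF, was higher by 0.35 ± 0.07 (adjusted p = 0.00157) and Ly6c1 lower by 0.34 ± 0.08 (adjusted p = 0.00388). Without the 4 libraries that stood apart 3 were higher and 3 lower, and under the L number block 3 were higher and Slc2a1 alone was lower.

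The other cell marker lists had at most 3 called genes each, against 6.75% of all genes higher and 6.96% lower. The calls of Gja1, Pdgfra and Gpr50 were lost under the L number block. Of 12 astrocyte genes Sox9 and Gja1 were higher, by 0.44 ± 0.06 and 0.13 ± 0.04 (adjusted p = 1.71e-05 and 0.0159), and the list summed to 3719 to 4283 CPM at ZT0 and 3355 to 4407 CPM at ZT12. Of 8 oligodendrocyte precursor genes Gpr17, a receptor of cells about to mature, was higher by 0.35 ± 0.04 with no overlap between groups (adjusted p = 7.20e-07), and Neu4 and Pdgfra were lower by 0.21 ± 0.05 and 0.20 ± 0.06 (adjusted p = 0.00258 and 0.0259). Of 12 oligodendrocyte genes Opalin and Mog were lower by 0.39 ± 0.09 and 0.36 ± 0.11 (adjusted p = 0.00324 and 0.0261), neither was called under the L number block, and the sum was 5228 to 9781 CPM at ZT0 and 4530 to 11017 CPM at ZT12. None of 12 microglial genes was called by edgeR or DESeq2 and none had an unadjusted p under 0.05, with sums of 413 to 564 CPM at ZT0 and 417 to 568 CPM at ZT12. Gpr50, an orphan receptor of tanycytes, was the 1 gene called of 10 ependymal and tanycyte markers (log2 0.37 ± 0.10, adjusted p = 0.0135).

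Markers of neighbouring tissue were also measured, and the counts below stand against 6.75% of all genes higher and 6.96% lower. Of 9 choroid plexus genes 7 were tested and Otx2 alone was called, higher by 0.44 ± 0.12 (adjusted p = 0.016), with sums of 74.1 to 117 CPM at ZT0 and 87.4 to 137 CPM at ZT12. Of 11 pituitary genes 7 were tested, and Tbx19 and Lhb were higher by 0.64 ± 0.13 and 0.73 ± 0.23 (adjusted p = 0.00168 and 0.0361). All 7 had a log2 fold change above 0, with a median of 0.73. For Lhb, 20.4% of the exonic bases are shared with Ruvbl2 on the other strand. The abundant pituitary hormone Prl was at 0 to 206 CPM at ZT0 and 0 to 27.8 CPM at ZT12 and was not called. Lef1 of the thalamic list and Drd1 of the striatal list were higher by 0.35 ± 0.10 and 0.25 ± 0.08 (adjusted p = 0.0175 and 0.0254), and none of 6 tested cortical markers was called by edgeR or DESeq2 or had an unadjusted p under 0.05. Of 5 blood genes Hbb-bt and Hbb-bs were lower by 0.66 ± 0.18 and 0.68 ± 0.20 (adjusted p = 0.0156 and 0.021). All 5 had a log2 fold change below 0, with a median of -0.66. Under the L number block Tbx19 alone of the genes called in these 5 lists was called. The part of these cells in the other differences was not tested, apart from the count without the 4 libraries that stood apart.

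The sampling covered both ZT in successive cycles 24 h apart. Within a ZT, no gene was called between cycles: 0 of 18727 at ZT0 and 0 of 18862 at ZT12 in edgeR, with 545 (2.91%) and 222 (1.18%) at an unadjusted p under 0.05. With 5 against 6 libraries at ZT0 and 6 against 6 at ZT12, these tests cannot show that the cycles were alike. The difference between ZT0 and ZT12 was also not shown to differ between cycles, with 0 of 19568 genes called for the interaction and 326 (1.67%) at an unadjusted p under 0.05. Taken alone, the second cycle (6 libraries at ZT0 and 6 at ZT12) gave 1011 calls and the first (5 and 6) gave 198, which is 5.39% and 1.05% of the genes tested in each. Sgk1 had log2 fold changes of -1.89 in the second cycle and -2.12 in the first, Dbp of -0.87 and -0.95, Hsph1 of 0.67 and 0.76, and Cldn5 of 1.004 and 1.07. Hspa1b differed more between them, at 1.09 in the second cycle and 1.80 in the first, and that difference of -0.70 was not called (unadjusted p = 0.00701 in edgeR). The 4 named genes with the smallest interaction p, Piwil4, Nfyc, Gm26984 and Gm16892, were not called.

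Libraries taken 3 h to either side of each time, which the comparison does not use, were tested as the mean of ZT21 and ZT3 over the mean of ZT9 and ZT15. In these 34 libraries 222 of 19681 genes (1.13%) were called, 96 higher (0.488%) and 126 lower (0.64%). Of the 2571 genes called between ZT0 and ZT12, 136 were called there in the same direction and 9 in the opposite one, and 72.3% had the same sign, against 52.7% of the genes not called. Of the 24 clock genes 1 was higher (Arntl) and 11 were lower, among them Tef, Hlf and Bhlhe40, which were not called between ZT0 and ZT12. The glucocorticoid list had 7 lower and none higher of 20, and the cytosolic chaperones had 3 higher (Stip1, Chordc1 and Fkbp4) and none lower of 25. Among single genes Mmp14 had a log2 fold change of 0.73, Cldn5 of 0.57, Dbp of -0.59 and Sgk1 of -0.87 (adjusted p = 2.88e-08, 1.83e-06, 0.000194 and 0.0013). Fosl2, Nr4a3 and Trib1 were not called at those times, with 0.02, -0.21 and -0.25.

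Over all 8 ZT, the profiles had different shapes. Sgk1 averaged 26.7, 24.7, 28.4, 39.1, 106, 76.4, 45.6 and 35.6 CPM at ZT0, 3, 6, 9, 12, 15, 18 and 21, with SDs from 1.49 CPM at ZT3 to 48.5 CPM at ZT15. ZT12 was thus its highest group and ZT3 its lowest. Cirbp climbed through the light phase, with 75.6 CPM at ZT0, 104 at ZT3, 122 at ZT6, 130 at ZT9 and 137 at ZT12, and stood at 94.1 CPM at ZT15. Dbp was highest at ZT9 (75 ± 10.7 CPM, n = 10), with 72.1 ± 8.35 CPM at ZT12 (n = 12), and lowest at ZT21 (35.9 ± 4.96 CPM, n = 6). Fosl2 had 14.8 ± 1.86 CPM at ZT0 and 13.6 ± 2.96 CPM at ZT15, with 8.33 to 11.5 CPM at the other times. These neighbouring values are descriptions without a test between each pair.

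**Figure D4:**
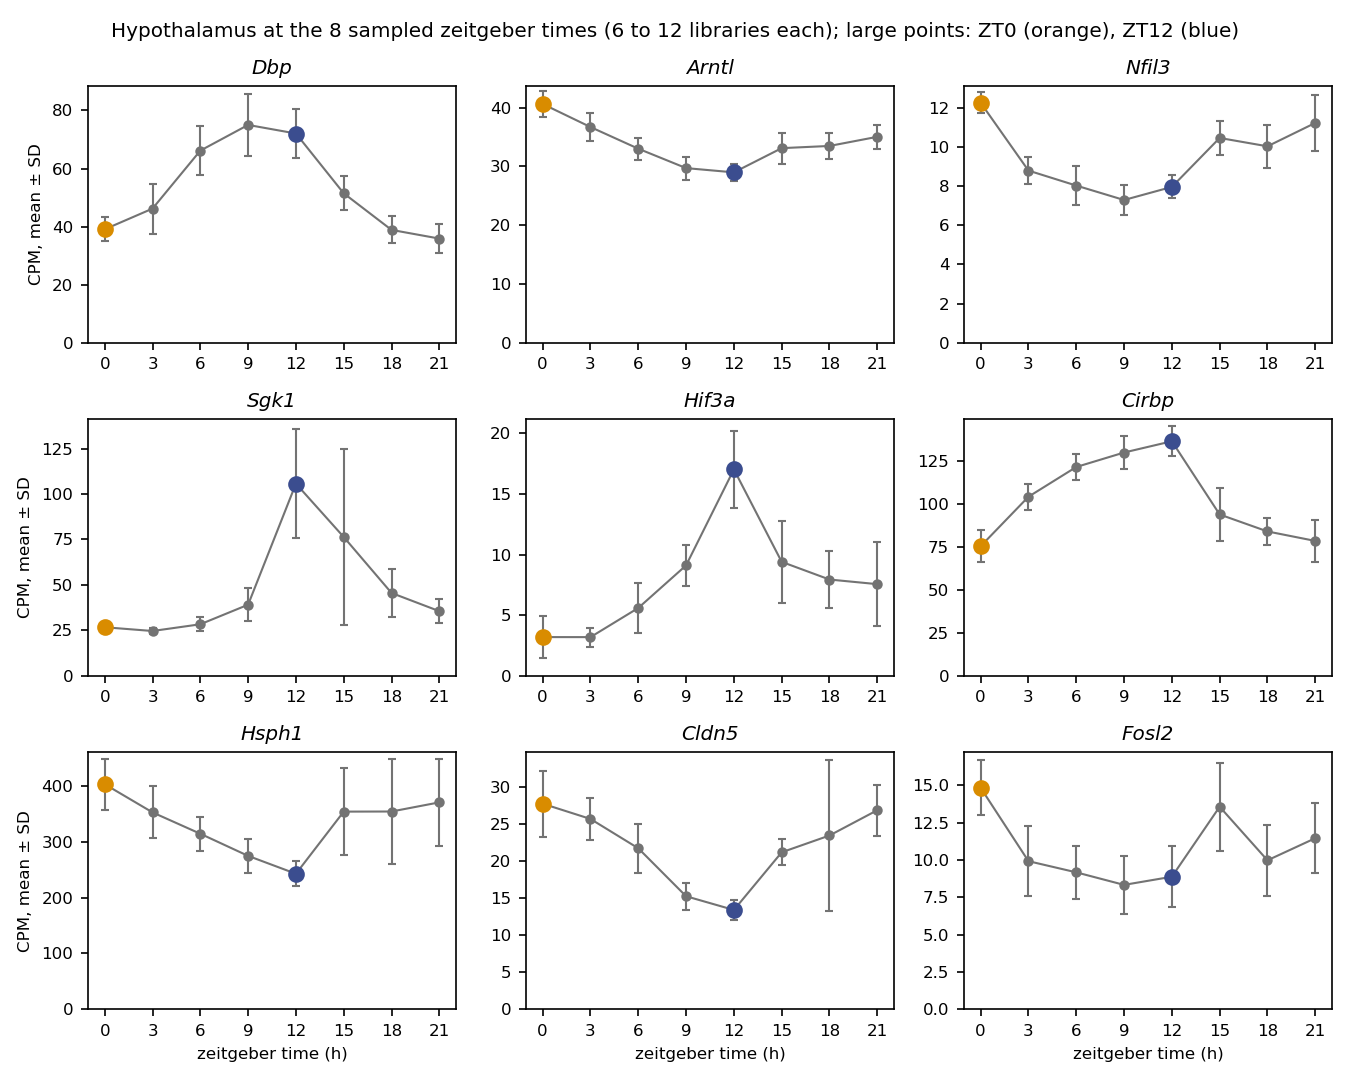
Mean CPM ± SD of 9 genes in hypothalamus at the 8 zeitgeber times (x axis, h), from 6 to 12 libraries each, without the 2 libraries with most pituitary RNA; ZT0 is the large orange point and ZT12 the large blue point. Sgk1 and Hif3a peak at ZT12, Cldn5 and Hsph1 are lowest there, and Dbp is highest at ZT9.

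The same contrast was set against that of the other tissues through the interaction of tissue and time, taken as hypothalamus minus the other tissue. The tissues share animals, and the counts with the mouse as a block are given in the closing section. The adjusted p given for single genes are from the fits without that block. In their own fits, ZT0 and ZT12 differed in 6620 of 18077 genes (36.6%) in cortex (11 and 12 libraries), 265 of 18669 (1.42%) in striatum (9 and 11) and 8415 of 14772 (57%) in liver (12 and 12). The difference between times itself differed between hypothalamus and cortex for 996 of 19518 genes (5.1%) and between hypothalamus and liver for 6253 of 19849 (31.5%). Against striatum 0 of 19727 genes were called by edgeR, with 347 (1.76%) at an unadjusted p under 0.05. Cortex ZT0 replicate 1 was left out of these fits because it lacked cortical markers, and with it the count against cortex was 570.

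For many clock genes the difference between times was not the same in hypothalamus as in liver or cortex. The interaction was called for 19 of 24 clock genes against liver, where 31.5% of all genes were called, and for 12 of 24 against cortex, where 5.1% were. It was called for none against striatum, where 0 of 19727 genes were. In the fit of striatum alone 2 of the 24 were higher at ZT0 and 3 lower, against 8 and 10 in cortex. Arntl had a log2 fold change of 0.46 in hypothalamus and 4.64 in liver, a difference of -4.17 ± 0.15 (adjusted p = 7.73e-29), and 0.93 in cortex, a difference of -0.47 ± 0.06 (adjusted p = 1.29e-07). For Dbp the values were -0.91 in hypothalamus, -6.58 in liver (difference 5.67 ± 0.15, adjusted p = 3.21e-34) and -1.50 in cortex (difference 0.60 ± 0.09, adjusted p = 1.75e-05). Per1 went the other way against cortex, with -0.61 in hypothalamus and -0.02 in cortex (difference -0.58 ± 0.11, adjusted p = 0.000541). Some clock genes differed in direction. Per2 was lower at ZT0 in hypothalamus and liver but higher in cortex (log2 0.16, adjusted p = 0.023), and Cry1 was lower in hypothalamus but higher in cortex and liver (log2 0.19 and 1.005, adjusted p = 0.00157 and 7.73e-08). The interaction against cortex was -0.63 ± 0.08 for Per2 and -0.39 for Cry1 (adjusted p = 6.33e-07 and 1.57e-05).

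**Figure D5:**
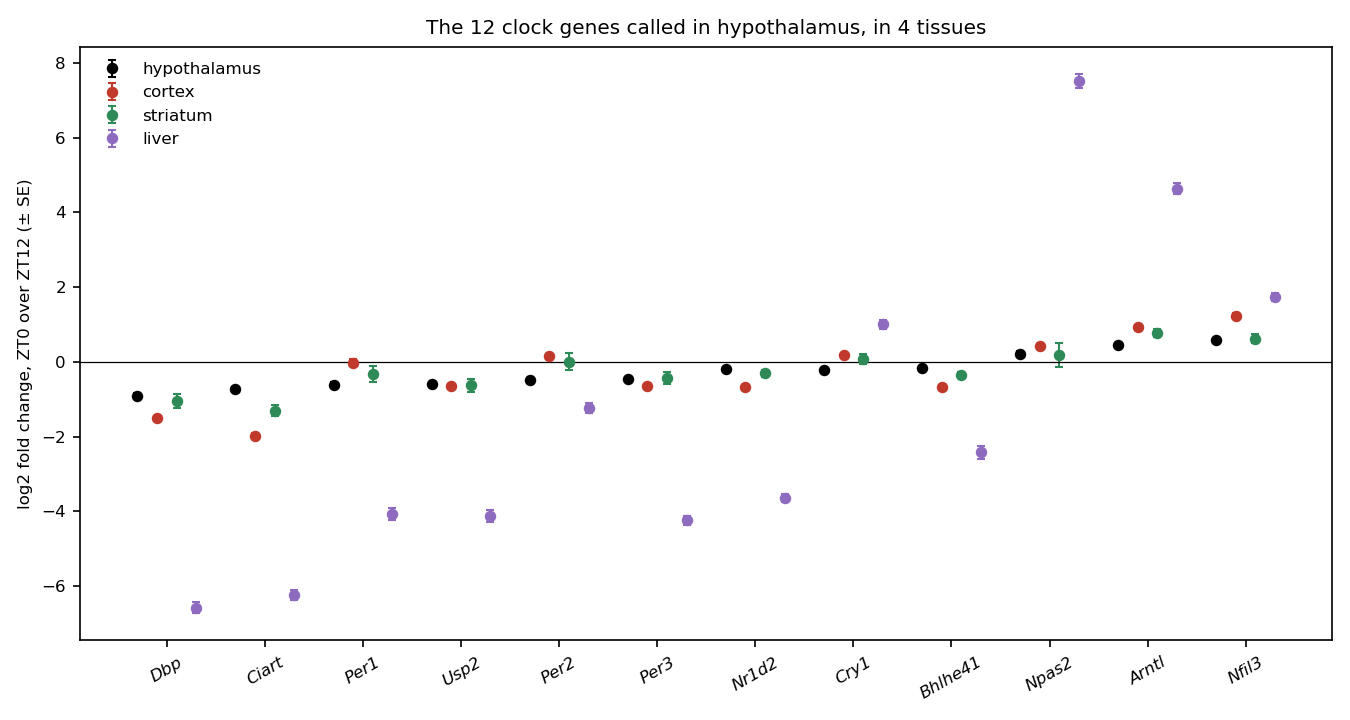
Log2 fold change ± SE, ZT0 over ZT12, of the 12 clock genes called in hypothalamus (black), with their own values in cortex (red), striatum (green) and liver (purple). The liver points reach -6.58 for Dbp and 7.53 for Npas2, while the hypothalamus points lie between -0.91 and 0.60.

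Outside the clock list, the 4 genes with the smallest interaction p against cortex were Trib1, Dnajb5, Mical2 and Dusp6. Trib1 was lower at ZT0 in hypothalamus (log2 -0.98) and higher in cortex, where it averaged 35.3 ± 8.15 CPM at ZT0 and 18.0 ± 2.45 CPM at ZT12 (SD, n = 11 and 12). The other 3 were flat in hypothalamus, between -0.01 and 0.03, and higher at ZT0 in cortex by 0.70 to 0.86. Of the immediate early genes, 8 of 30 were higher at ZT0 in hypothalamus and 26 of 30 in cortex, where 17.2% of all genes were higher, and the interaction was called for 19 of 30. Arl4d, lower in hypothalamus by 1.30, had 0.16 in cortex (interaction -1.46 ± 0.19, adjusted p = 7.19e-07), and Kirrel2 had -1.18 in hypothalamus and -0.26 in cortex (interaction -0.92 ± 0.13, adjusted p = 3.25e-06). By contrast, Cldn5 and Cirbp had nearly the same fold change in hypothalamus and cortex, with interactions of -0.10 and 0.01 that were not called (adjusted p = 0.658 and 0.972). The cytosolic chaperones had a median of 0.36 in hypothalamus, 0.34 in cortex, 0.32 in striatum and 0.30 in liver. The interaction was called for 5 of 25 chaperones against cortex and 10 of 25 against liver, where 5.1% and 31.5% of all genes were called. Sgk1 was lower at ZT0 in the 3 brain regions and had a log2 fold change of 0.16 in liver that was not called, and its difference between hypothalamus and liver was -2.16 ± 0.25 (adjusted p = 5.52e-10).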

How the data were processed

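The authors deposited raw counts per Ensembl gene and FPKM values. Within a gene, FPKM were proportional to the count over the library total. Tools named in the submitters' processing notes, with no role or order, are HTSeq 0.10.0 and STAR 2.7.3a, beside the build GRCm38/mm10. Neither the strand setting nor the annotation release is stated there. Of 48795 identifiers, 48349 were matched to a symbol.

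Counts were tested with edgeR 4.0.16 in R 4.3.3 (filterByExpr by group, TMM, quasi-likelihood test, Benjamini-Hochberg over all genes tested, called at adjusted p under 0.05). The script was tested on simulated data. CPM are counts scaled to the library total, fold changes are ZT0 over ZT12, and SE is the log2 fold change over the square root of F. Replicates are separate animals. No library pair of a ZT agreed within sampling noise (chi-square at least 5.25 times its degrees of freedom over 121 pairs). Alternatives included DESeq2 1.42.0.

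The 31 gene lists and all members were chosen with earlier results of these data known. No test of a list was made. Named genes were all 24 clock genes, the 12 largest rises and 12 largest falls among called genes whose log2 CPM averaged 1 or more, 4 called members per other list by adjusted p (where none was called, the 2 with the smallest p), 4 per interaction, and the 10 with the smallest p. A few genes that the rule chose are not reported here, though they count in the totals of their lists. Other genes named from a list are given to show which of its members were called or not, and were chosen after their values were seen.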

Additional observations from a re-analysis of the deposited data

Results flagged for a closer look

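The difference between ZT0 and ZT12 was not the same in hypothalamus as in cortex or liver for the genes below, by the interaction of tissue and time in edgeR, adjusted over all genes tested. Against cortex, the hypothalamus minus cortex difference in log2 fold change was -1.96 for Trib1, -0.83 for Dnajb5, -0.69 for Mical2 and -0.86 for Dusp6, and 12 of 24 clock genes differed. Against liver it was -2.54 for Clpx, a mitochondrial protease subunit, -2.91 for Dtx4 and -3.19 for Chka, and 19 of 24 clock genes differed. The cause was not tested.

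The library left out, ZT0 replicate 9, held 29306 CPM of the pituitary hormone Gh, against at most 629 CPM in the 23 libraries used.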

How the results depend on the processing

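The count of 2571 called genes stayed between 2137 and 2956 under 12 other settings, 2 of them chosen after seeing the data (without the 4 libraries that stood apart, and totals without Gm42418 and mitochondrial genes). It was 198 with the first cycle alone, 1011 with the second cycle alone and 875 with the L number as a block. Fewer libraries entered the single cycles. The L block spends degrees of freedom on 9 numbers spread unevenly over the ZT, such as number 3 with 3 ZT0 and 0 ZT12 libraries. An effect tied to the L number and a loss of degrees of freedom cannot be told apart here. With library totals alone 59.3% of 2448 calls were higher at ZT0, against 49.2% in the reported fit, and with upper-quartile scaling 40.9% of 2635. The labels give no pairing by replicate number. Deviations of same-numbered libraries correlated at -0.03 to 0.49 over 11 pairs, with 2 libraries best matched to their own number, and the replicate block gave 2845 calls. The count against cortex was 570 with cortex ZT0 replicate 1. With the mouse as a block, since tissues share animals, the counts were 942 against cortex, 0 against striatum and 5780 against liver. Of 115 genes named for this contrast, leaving aside those named only for an interaction, none reversed where it was tested. Of 93 called ones, 61 kept their call under the L block, 44 in the first cycle alone and 68 in the second, and 85 of 93 without the 4 libraries that stood apart. Calls lost with ZT0 replicate 9 put back were those of Cyp51, Gja1, Hcrtr2, Kcnk2, Lef1, Ndufb2, Txnip and Ucp2. Calls lost without the 4 libraries were those of Clk1, Cyp51, Hcrtr2, Kcnk2, Mvk, Oas1a, Rarb and mt-Nd6.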
